A study of Mus musculus with 16 samples.

Results

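The 9 genes described here encode the giant protein titin and proteins that anchor it at both ends of the sarcomere, the contractile unit of heart muscle. They were chosen by platform symbol: Ttn, Myom1, Myom2, Myom3, Actn2, Ldb3, Tcap, Csrp3 and Nebl. All 9 were measured, on 10 probe sets that each name 1 gene, out of 19937 genes that a single-gene probe set measured. Only Nebl had 2 probe sets, and each gene is described by its brightest.

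Expression was measured in single whole hearts of C57BL/6 embryos on Affymetrix Mouse Gene 1.0 ST arrays, 16 arrays with 4 hearts per group. The groups were Chd7fl/fl;Mesp1-Cre (mutant) and control hearts at E13.5, and mutant and control hearts at E11.5. In the mutants both Chd7 alleles are floxed and Mesp1-Cre recombines them in the anterior mesoderm and its descendants, so cells of other origin in the same hearts keep Chd7. The control hearts are labelled WT and are given as Chd7+/+;Mesp1-Cre in the study's methods. The parents stated for the embryos were Chd7fl/+;Mesp1-Cre and Chd7fl/fl mice, a cross that gives no Chd7+/+ embryo, so the controls' Chd7 alleles are not settled. Chd7 encodes an ATP-dependent chromatin remodeller.

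Titin reaches from the Z-disc to the middle of the sarcomere, with its N-terminus in the Z-disc and its C-terminus in the M-band, and acts as a molecular spring. In the M-band the myomesins, encoded by Myom1, Myom2 and Myom3, cross-link the thick filaments to titin. In the Z-disc α-actinin (Actn2) cross-links thin filaments of opposite polarity, telethonin (Tcap) caps a pair of titin N-termini, and Cypher/ZASP (Ldb3), muscle LIM protein (Csrp3) and nebulette (Nebl) bind there. Mutations in several of these genes are known to cause cardiomyopathy in humans.

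The arrays give log2 expression levels, and levels are compared between hearts for a gene. Between probe sets they serve only to tell bright from dim ones. Chd7, on its brightest probe set (10503184), was at 8.88 to 9.07 in mutant hearts and 9.83 to 10.30 in control hearts at E13.5. It differed by -1.08 (adjusted p = 0.0209, limma). At E11.5 it was at 9.16 to 9.73 in mutant hearts and 10.64 to 10.89 in control hearts, and differed by -1.29 (adjusted p = 0.00132, limma). The study lists larger decreases of Chd7 at both stages, without naming the probe set. The 11 heart muscle markers had mean log2 levels of 13.03 to 13.08 in mutant and 13.04 to 13.17 in control hearts at E13.5, and of 12.73 to 12.78 in mutant and 12.75 to 12.80 in control hearts at E11.5. In all, 3 hearts stood apart, with 21 to 38 genes more than 1 above every other heart of their stage, against at most 5 in the others: mutant E11.5 replicates 3 and 4 and control E13.5 replicate 1. The 18 hypoxia-induced genes lay at a median of 0.94 above the control mean in replicate 4 of the mutant E11.5 hearts, against at most 0.32 in any other heart. In whole hearts, fewer muscle cells and less RNA per muscle cell cannot be told apart.

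RefSeq windows from 250 bases before to 50 bases after an annotated start (build GRCm38.p6) were at hand for 7 of the 9 genes, 12 windows in all, and not for Myom2 and Tcap. The windows of 5 genes are printed. Those of Ttn, Myom1, Ldb3 and Nebl hold a MEF2 motif or a CArG box, both known from promoters of muscle genes, and that of Csrp3 belongs to the gene of these 5 with the largest change between stages. Capitals mark matches to motifs searched on both strands, and no base lay in 2 matches.
Ttn, chr2:76982498-76982797, minus strand: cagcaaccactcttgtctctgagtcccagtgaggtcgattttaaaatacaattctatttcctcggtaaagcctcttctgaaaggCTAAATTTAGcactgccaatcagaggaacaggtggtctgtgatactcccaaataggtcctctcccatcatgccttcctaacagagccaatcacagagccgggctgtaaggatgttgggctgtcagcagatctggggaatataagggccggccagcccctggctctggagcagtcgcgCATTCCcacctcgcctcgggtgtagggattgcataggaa
Myom1, chr17:71019307-71019606, plus strand: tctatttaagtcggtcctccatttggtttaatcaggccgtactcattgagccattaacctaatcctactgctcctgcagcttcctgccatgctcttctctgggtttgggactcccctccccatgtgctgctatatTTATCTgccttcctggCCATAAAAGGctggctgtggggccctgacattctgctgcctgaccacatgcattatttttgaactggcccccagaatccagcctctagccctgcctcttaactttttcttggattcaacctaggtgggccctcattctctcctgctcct
Ldb3, chr14:34588558-34588857, minus strand: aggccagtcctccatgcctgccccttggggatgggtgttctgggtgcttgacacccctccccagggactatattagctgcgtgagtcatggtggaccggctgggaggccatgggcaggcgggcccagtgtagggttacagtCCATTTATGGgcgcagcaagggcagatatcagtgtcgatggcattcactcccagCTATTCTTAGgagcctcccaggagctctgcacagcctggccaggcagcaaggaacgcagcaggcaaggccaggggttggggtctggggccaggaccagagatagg
Csrp3, chr7:48848002-48848301, minus strand: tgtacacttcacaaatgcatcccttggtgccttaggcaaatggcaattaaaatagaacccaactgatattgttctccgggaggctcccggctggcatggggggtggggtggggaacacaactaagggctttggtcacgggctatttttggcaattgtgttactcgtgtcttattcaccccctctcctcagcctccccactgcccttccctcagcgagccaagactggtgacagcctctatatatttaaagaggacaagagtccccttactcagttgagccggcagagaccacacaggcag
Nebl, chr2:17462807-17463106, minus strand: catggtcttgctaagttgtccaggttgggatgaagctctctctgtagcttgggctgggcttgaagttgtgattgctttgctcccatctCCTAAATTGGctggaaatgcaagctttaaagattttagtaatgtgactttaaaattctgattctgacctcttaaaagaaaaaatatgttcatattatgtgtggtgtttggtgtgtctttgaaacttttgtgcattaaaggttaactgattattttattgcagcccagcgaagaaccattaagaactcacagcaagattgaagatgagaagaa

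The MEF2 motif was searched in a loose form, CTA and TAG with any 4 bases between. It was in 3 of the 12 windows and in 3.69% of all 32851 mouse windows. The 3 were those of Ttn and both of Ldb3, which overlap and hold the same match. The 4 bases between are all A or T in the Ttn match (CTAAATTTAG), while those in the Ldb3 match (CTATTCTTAG) include a C. The CArG box, a site that serum response factor binds, was in 4 of the 12 windows (Myom1, both of Ldb3 and 1 of the 4 of Nebl) and in 1.63% of all. The GATA motif (AGATAA) was in 3 windows, 1 of Myom1 and 2 of Nebl, against 11.2% of all, and the MCAT motif (CATTCC) in 2, against 14.7%. The E-box CAGCTG and the TATA motif TATAAA were in none of the 12, against 16.3% and 13.6% of all. The windows of Myom3, Actn2 and Csrp3 held none of these motifs. A match is a run of letters and was not tested as a binding site.

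At E13.5 no member was called in mutant against control hearts, but Myom2 was higher and Nebl and Csrp3 were lower in all 4 mutant hearts than in any control heart. A gene was called where limma gave an adjusted p under 0.05 over all 34760 probe sets and a log2 FC over 0.5 in size, which 0.0451% of all genes reached at E13.5. At an unadjusted p under 0.05, 3 of the 9 passed (Myom2 higher, Nebl and Tcap lower), against 3.94% of all genes. The hearts did not overlap for 3 of the 9, against 4.08% of all genes. With 4 hearts against 4, the exact two-sided permutation test gives p = 0.0286, its smallest, wherever the groups do not overlap. For these 3 genes it therefore adds nothing to the lack of overlap.

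At E11.5 no member was called either (0.251% of all genes were), and only Myom2 had an unadjusted p under 0.05, against 9.34% of all genes. It was also the only member whose hearts did not overlap, against 3.93% of all genes. Averaged over both stages, Myom2 was the 1 member called, upregulated in mutants (0.416% of all genes were called, 0.14% as higher). At an unadjusted p under 0.05, 3 of the 9 passed (Myom2 higher, Nebl and Tcap lower), against 8.8% of all genes. For none of the 9 did limma's test of the difference between the 2 stages' genotype effects pass (0% of all genes called). None of the 9 had an unadjusted p under 0.05 there, against 3.96% of all genes.

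**Figure D1:**
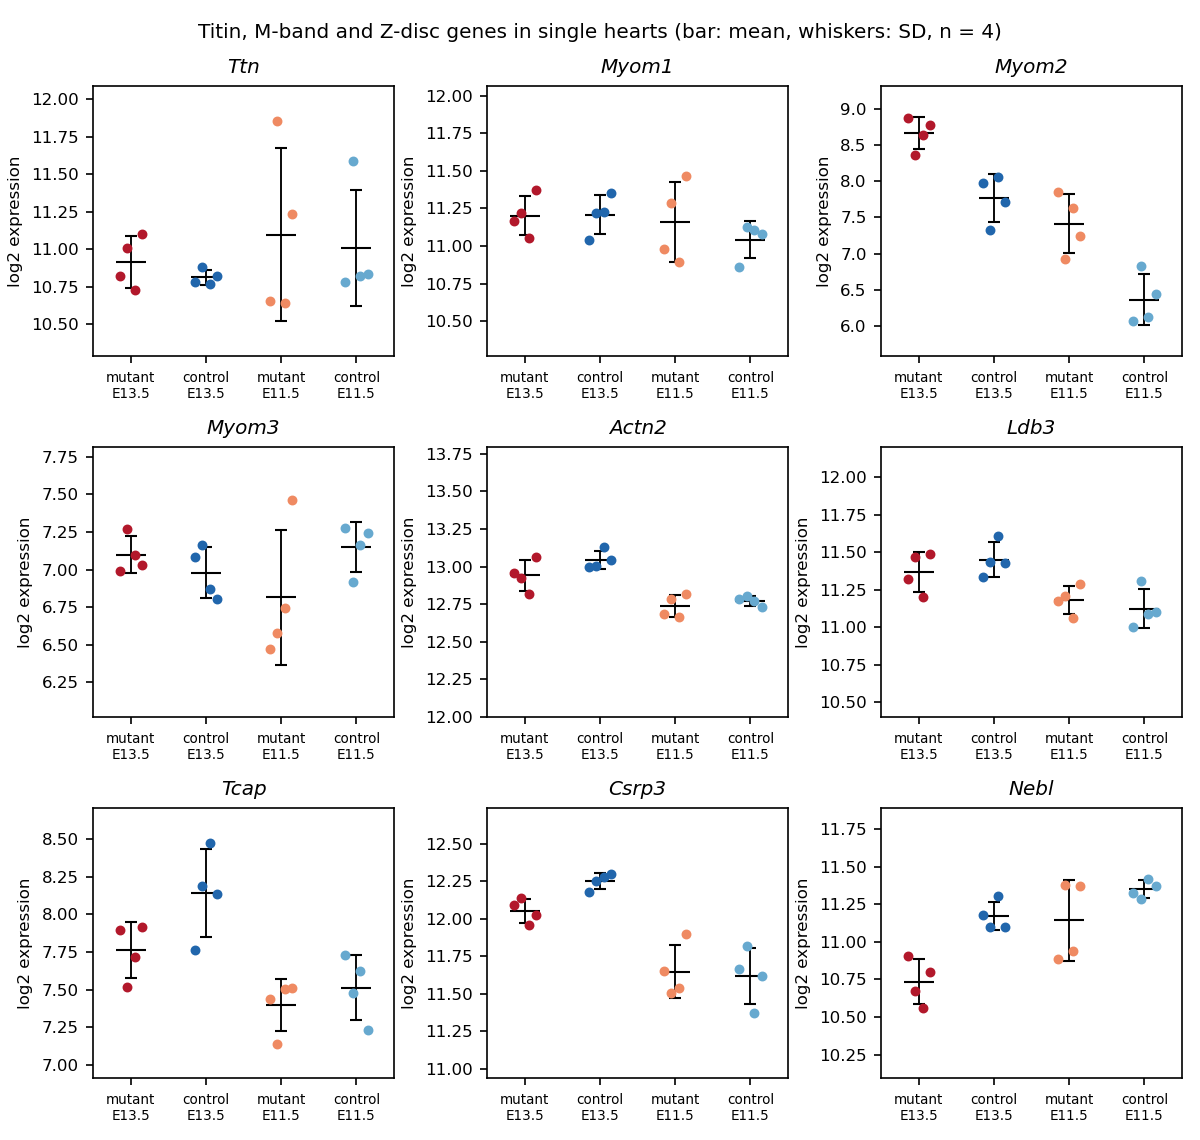
Log2 expression of the 9 genes in each of the 16 hearts. Columns are mutant E13.5, control E13.5, mutant E11.5 and control E11.5, points are hearts, bars are means and whiskers SD (n = 4 per group), and each axis spans its own range. Myom2 averages 8.66 in mutant and 7.77 in control hearts at E13.5, and 7.41 in mutant and 6.36 in control hearts at E11.5.

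Among the M-band genes, Myom2, which encodes the myomesin of adult heart and fast skeletal muscle, was the member that differed most with genotype (probe set 10570518). Its levels were 8.87, 8.37, 8.64 and 8.77 in mutant hearts at E13.5, against 7.97, 7.32, 8.05 and 7.72 in control hearts. At E11.5 they were 7.85, 6.93, 7.62 and 7.24 in mutant hearts, against 6.06, 6.82, 6.12 and 6.44 in control hearts. Every mutant heart lay above every control heart of its stage, and the closest pair at E11.5 (mutant replicate 2 and control replicate 2) was 6.93 against 6.82. The log2 FC was 0.90 at E13.5 (standard error 0.22, 1.86-fold, adjusted p = 0.394, limma), and 1.05 at E11.5 (standard error 0.22, 2.07-fold, adjusted p = 0.0691). The mean of both effects was 0.97 (standard error 0.16, 95% interval 0.64 to 1.31, adjusted p = 0.00734). The difference between the stages was -0.15 (95% interval -0.82 to 0.51, adjusted p = 1.00). Without the 3 hearts that stood apart the mean was 1.00, no longer called (adjusted p = 0.0586). With the replicate number as a block it was 0.97, also not called (adjusted p = 0.0662, limma). The E11.5 difference was called under 4 of the other settings (adjusted p 0.0315 to 0.0446) and with replicate 2 of either E11.5 group left out (adjusted p = 0.0401 without the mutant and 0.0497 without the control heart).

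Myom2 is also expressed in skeletal muscle, and 13 skeletal muscle genes were followed beside it. None of them was called between genotypes. Their log2 FC was positive for 9 of 13 at E13.5 (median 0.10), 7 of 13 at E11.5 (median 0.02) and 10 of 13 as the mean (median 0.07). Of all 19937 genes, 10245 were positive at E13.5, 10154 at E11.5 and 10131 as the mean. At an unadjusted p under 0.05, 0 of the 13 passed at E13.5 (3.94% of all genes did) and 2 at E11.5 (9.34% of all genes). Both were higher: Myh8, a perinatal myosin heavy chain (0.60), and Myf6, a myogenic transcription factor (0.49). Their mean log2 level per heart was 6.47 to 6.96 in mutant and 6.22 to 6.66 in control hearts at E13.5, and 6.74 to 6.90 in mutant and 6.60 to 6.90 in control hearts at E11.5. Of the other myogenic factors in the list, Myod1 had log2 FCs of -0.08 at E13.5 and 0.02 at E11.5, and Myog of -0.08 and -0.07. At E13.5 both were in the minority of the list below 0, so they do not stand for it. Myog was dim, at 5.95 to 6.65 over all hearts, and so was Myf6, at 5.53 to 6.88. Mean levels over all hearts were also low for Myf5 (5.19), Chrnd (6.10) and Myh3 (6.14), while others, such as Tnnt3 (8.70), were brighter. RMA can compress differences of dim probe sets, so the lack of calls in this list carries that limit. The 6 epicardial genes had positive log2 FCs at both stages, with medians of 0.30 at E13.5 and 0.25 at E11.5, and none was called. At an unadjusted p under 0.05, 1 of the 6 passed at each stage, higher in mutants (3.94% of all genes at E13.5 and 9.34% at E11.5). Per heart, their median distance from the control mean was -0.17 to 0.86 in mutant and -0.20 to 0.07 in control hearts at E13.5, and 0.07 to 0.46 in mutant and -0.15 to 0.11 in control hearts at E11.5. The 18 hypoxia-induced genes had positive log2 FCs for 16 of 18 at E13.5 (median 0.12) and 18 of 18 at E11.5 (median 0.33), and none was called. At an unadjusted p under 0.05, 0 of the 18 passed at E13.5 (3.94% of all genes did) and 4 at E11.5, all higher (9.34% of all genes in either direction). Per heart, their median distance from the control mean was -0.01 to 0.32 in mutant and -0.09 to 0.18 in control hearts at E13.5, and 0.05 to 0.94 in mutant and -0.10 to 0.06 in control hearts at E11.5. Other cell type lists were followed too, and none of their genes was called between genotypes. The median log2 FC of 8 fibroblast and cushion mesenchyme genes was -0.09 at E13.5 and -0.21 at E11.5. For 7 endothelial and endocardial genes it was -0.14 and -0.05, and for 5 erythroid genes -0.32 and -0.24. For 6 smooth muscle genes it was -0.03 and 0.12. The part of any of these lists in the Myom2 difference was not tested.

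Myom1, the myomesin present in all striated muscle, was at 11.05 to 11.37 in mutant and 11.04 to 11.35 in control hearts at E13.5. At E11.5 it was at 10.90 to 11.47 in mutant and 10.86 to 11.13 in control hearts. The groups overlapped at both stages, and the log2 FCs were -0.01 (95% interval -0.28 to 0.27) and 0.12 (95% interval -0.16 to 0.39). Set against Myom1 in the same heart, the Myom2 level was 0.90 higher on the log2 scale in mutant than in control hearts at E13.5 (exact permutation p = 0.0286, adjusted over 4 such comparisons 0.114). At E11.5 this difference was 0.93 (exact p = 0.0571, adjusted 0.114). Neither passed after adjustment, and 4 hearts against 4 allow no p below 0.0286. Even with Myom2 at this floor at both stages, an adjusted p under 0.05 would have needed a Myom3 comparison at the floor too.

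Myom3, which encodes the myomesin known from intermediate-speed skeletal fibres, differed less. Its levels were 6.99, 7.27, 7.10 and 7.03 in mutant and 7.08, 7.16, 6.87 and 6.80 in control hearts at E13.5 (log2 FC 0.12, 95% interval -0.26 to 0.50). At E11.5 they were 6.47, 6.58, 6.75 and 7.46 in mutant and 7.28, 6.92, 7.16 and 7.25 in control hearts (log2 FC -0.34, 95% interval -0.71 to 0.04, adjusted p = 0.592). At E11.5, 3 mutant hearts lay below every control heart and the other, replicate 4, above them all. That is the heart with the highest hypoxia-induced genes of the 16, whose part in the value was not tested. Without the 3 hearts that stood apart the log2 FC at E11.5 was -0.63 (adjusted p = 0.127). The difference between the stages was 0.45 (95% interval -0.08 to 0.99). Relative to Myom1 in the same heart, the difference between mutant and control hearts was 0.12 at E13.5 (exact permutation p = 0.429) and -0.45 at E11.5 (exact p = 0.0857).

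**Figure D2:**
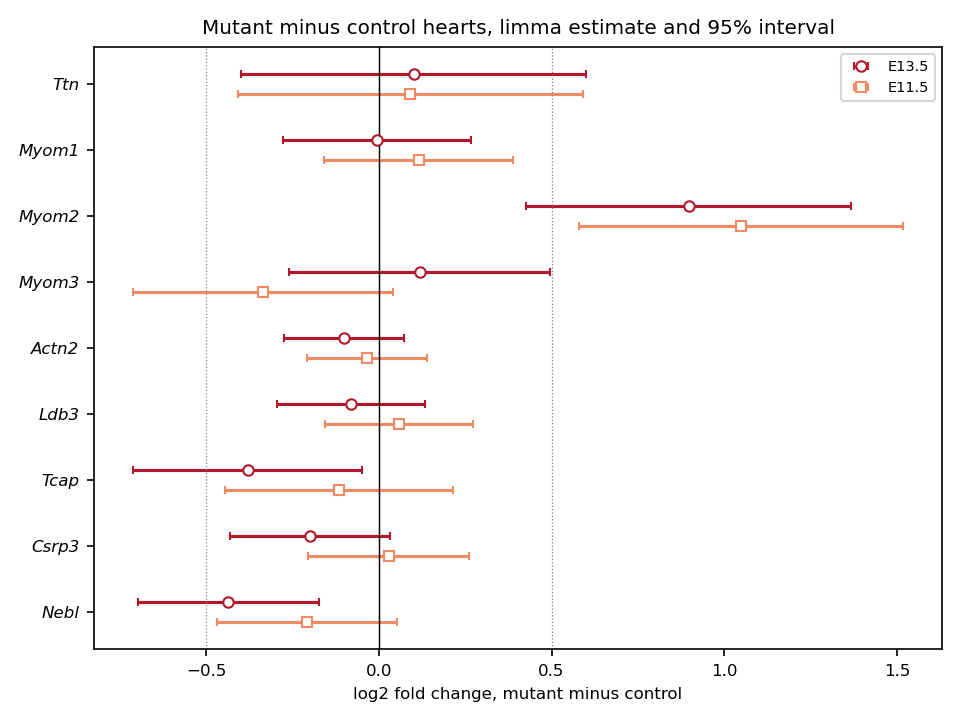
Log2 FC of the 9 genes in mutant minus control hearts at E13.5 (circles) and E11.5 (squares), with limma's 95% intervals from 4 hearts per group. Open symbols were not called, and dotted lines mark 0.5 in either direction. Only the intervals of Myom2 lie above 0 at both stages, at 0.43 to 1.37 for E13.5 and 0.58 to 1.52 for E11.5.

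Titin itself (Ttn) showed no detectable difference. Its levels were 10.82, 11.01, 10.73 and 11.10 in mutant and 10.78, 10.88, 10.77 and 10.82 in control hearts at E13.5. At E11.5 they were 10.66, 11.85, 10.64 and 11.24 in mutant and 10.79, 11.59, 10.82 and 10.83 in control hearts. Replicate 2 was the highest heart of both E11.5 groups, and the groups overlapped at both stages. The log2 FC was 0.10 at E13.5 (95% interval -0.40 to 0.60) and 0.09 at E11.5 (95% interval -0.41 to 0.59), the widest intervals of the 9 genes.

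Of the Z-disc genes, Nebl, whose nebulette links thin filaments to the Z-disc, was lower in every mutant heart than in any control heart at E13.5 (probe set 10480288). It was at 10.90, 10.68, 10.56 and 10.80 in mutant and 11.18, 11.10, 11.30 and 11.10 in control hearts at E13.5. At E11.5 it was at 10.88, 11.38, 10.94 and 11.37 in mutant and 11.32, 11.29, 11.42 and 11.37 in control hearts. The groups were apart at E13.5, while at E11.5 mutant replicates 1 and 3 lay below the control hearts and the other two among them. The log2 FC was -0.44 at E13.5 (standard error 0.12, 0.739-fold, adjusted p = 0.618), -0.21 at E11.5 (standard error 0.12, adjusted p = 0.638) and -0.32 as the mean (standard error 0.09, adjusted p = 0.194). These did not pass the test. The dimmer Nebl probe set (10480275), which lists no accession in common with the brighter, was at 7.83 to 7.99 in mutant and 8.07 to 8.27 in control hearts at E13.5, again without overlap (log2 FC -0.26, adjusted p = 1.00). At E11.5 its log2 FC was -0.22 (adjusted p = 0.671).

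Csrp3, whose muscle LIM protein is a Z-disc scaffold and is needed for normal heart muscle structure in mice, was at 12.09, 12.14, 11.96 and 12.02 in mutant and 12.18, 12.25, 12.28 and 12.30 in control hearts at E13.5. The groups did not overlap, though the gap was small (12.14 against 12.18). The log2 FC was -0.20 (standard error 0.11, adjusted p = 1.00). At E11.5 Csrp3 was at 11.65, 11.502, 11.54 and 11.89 in mutant and 11.67, 11.82, 11.37 and 11.62 in control hearts. These overlapped, with a log2 FC of 0.03 (95% interval -0.21 to 0.26).

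Tcap, the telethonin gene, was at 7.89, 7.51, 7.72 and 7.92 in mutant and 7.76, 8.19, 8.48 and 8.13 in control hearts at E13.5. All mutant hearts lay below 3 of the control hearts, and control replicate 1, which stood apart, lay among them. The log2 FC was -0.38 (standard error 0.16, adjusted p = 1.00) and -0.51 without the hearts that stood apart (adjusted p = 0.794). At E11.5 Tcap was at 7.44, 7.14, 7.50 and 7.51 in mutant and 7.73, 7.48, 7.62 and 7.23 in control hearts (log2 FC -0.12, 95% interval -0.45 to 0.22).

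Actn2 and Ldb3 had the narrowest intervals. Actn2 was at 12.82 to 13.07 in mutant and 13.00 to 13.13 in control hearts at E13.5 (log2 FC -0.10, 95% interval -0.28 to 0.07). At E11.5 it was at 12.66 to 12.82 in mutant and 12.73 to 12.80 in control hearts (log2 FC -0.03, 95% interval -0.21 to 0.14). Ldb3 was at 11.20 to 11.48 in mutant and 11.33 to 11.61 in control hearts at E13.5 (log2 FC -0.08, 95% interval -0.30 to 0.13). At E11.5 it was at 11.06 to 11.29 in mutant and 11.00 to 11.31 in control hearts (log2 FC 0.06, 95% interval -0.16 to 0.27). The groups overlapped in all these comparisons, and the intervals exclude a log2 FC of 0.5 in either direction.

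Between the stages, Myom2 was upregulated at E13.5 in both genotypes, and Tcap and Csrp3 were upregulated in control hearts, with no call in mutant hearts. Of the 9 members, 1 was called in mutant hearts (29.6% of all genes were) and 3 in control hearts (28.8% of all genes), each of them higher at E13.5 (16.8% of all genes in mutants, 16.5% in controls). At an unadjusted p under 0.05, 5 of the 9 passed in each genotype, against 52.9% of all genes in mutants and 51.7% in controls. The E13.5 hearts did not overlap the E11.5 hearts, and lay above them, for 4 members in mutants (24.8% of all genes, 39% in either direction) and 5 in controls (26.8%, 42.3% in either direction). The genotype comparison and the stage comparison share hearts, so their values are given side by side and not compared. Whether the 2 stages were normalised together is not given in the sources used here. Of the distinct values at E13.5, 21.1% also occurred among those at E11.5 to the last digit, and the SD over probe sets was 2.38 to 2.42 at E13.5 and 2.18 to 2.26 at E11.5.

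For Myom2 the E13.5 minus E11.5 difference was 1.25 in mutant hearts (standard error 0.22, 2.38-fold, adjusted p = 0.00042) and 1.41 in control hearts (standard error 0.22, 2.65-fold, adjusted p = 0.000169). Group means of Myom2 were 8.66 ± 0.22 in mutant and 7.77 ± 0.33 in control hearts at E13.5, and 7.41 ± 0.41 in mutant and 6.36 ± 0.35 in control hearts at E11.5 (SD, n = 4). The mutant hearts at E11.5 (6.93 to 7.85) overlapped the control hearts at E13.5 (7.32 to 8.05). For Csrp3 the difference was 0.41 in mutant hearts (standard error 0.11, adjusted p = 0.00815), under the threshold on the fold, and it rose by 0.63 in control hearts (standard error 0.11, adjusted p = 0.000372). For Tcap the difference was 0.36 in mutant hearts (adjusted p = 0.0725) and it rose by 0.63 in control hearts (standard error 0.16, adjusted p = 0.00487). The test of the difference between genotypes gave -0.23 for Csrp3 (95% interval -0.56 to 0.10) and -0.26 for Tcap (95% interval -0.73 to 0.20), so a smaller rise in mutants was not shown.

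**Figure D3:**
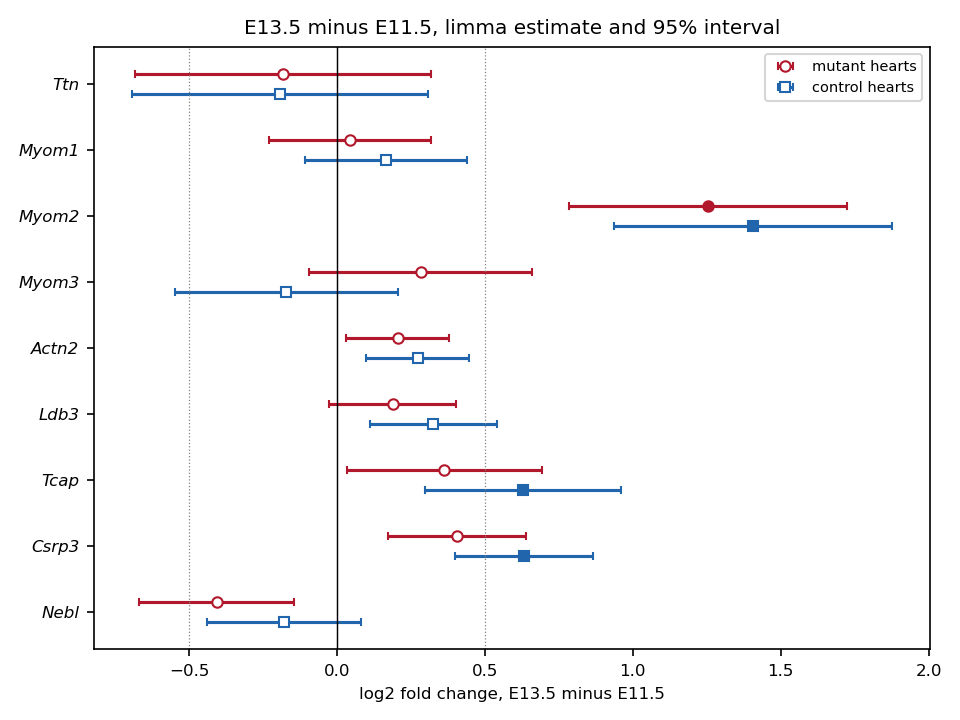
Log2 FC of the 9 genes at E13.5 minus E11.5 in mutant hearts (circles) and control hearts (squares), with limma's 95% intervals. Filled symbols were called, open ones were not. Myom2 is filled in both genotypes, at 1.25 in mutant and 1.41 in control hearts.

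Actn2 and Ldb3 had differences below the threshold on the fold. For Actn2 it was 0.20 in mutant (adjusted p = 0.0551) and 0.27 in control hearts (adjusted p = 0.0146), and for Ldb3 0.19 in mutant (adjusted p = 0.147) and 0.33 in control hearts (adjusted p = 0.0176). Nebl ran the other way, at -0.41 in mutant hearts (standard error 0.12, adjusted p = 0.0152, under the threshold on the fold) and -0.18 in control hearts (adjusted p = 0.255). Ttn was at -0.18 in mutant and -0.19 in control hearts, Myom1 at 0.04 in mutant and 0.17 in control hearts, and Myom3 at 0.28 in mutant and -0.17 in control hearts, none with an adjusted p under 0.05. Centred on the 11 heart muscle genes, which were themselves higher at E13.5, the median of all genes shifted to -0.25 in mutant and -0.29 in control hearts. On that scale Csrp3 was at 0.30 (adjusted p = 0.0345) and Tcap at 0.30 (adjusted p = 0.116) in control hearts, neither called, and under quantile and cyclic loess normalisation Csrp3 was at 0.41 and 0.39 there, below the fold threshold. The signs of Actn2 (-0.09 in mutant and -0.06 in control hearts), Ldb3 in mutant hearts (-0.11) and Myom1 (-0.25 in mutant and -0.16 in control hearts) turned when the arrays were centred on heart muscle genes. Myom2 stayed called with this centring, at 0.96 in mutant and 1.08 in control hearts.

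Partner genes were followed in 4 lists: 22 Z-disc genes, 5 genes of proteins that bind the elastic I-band part of titin, 8 genes of M-band partners and 9 genes of thin filament ends and filament assembly. At either stage alone none of these genes was called between genotypes. In the average over stages 1 was called as higher (0.14% of all genes were, and 0.416% in either direction), Fhl2, a LIM protein that binds titin and is known as a brake on growth signalling in mouse heart. The median log2 FC at E13.5 was -0.09 for the Z-disc list, 0.12 for the I-band list, -0.0011 for the M-band list and -0.08 for the thin filament list, against 0.00 for all genes. At E11.5 the median was 0.02 for the Z-disc list, 0.19 for the I-band list, -0.10 for the M-band list and -0.02 for the thin filament list, against 0.00 for all genes. At an unadjusted p under 0.05, 1 of 22 Z-disc, 2 of 5 I-band, 0 of 8 M-band and 2 of 9 thin filament genes passed at E13.5, against 3.94% of all genes. The Z-disc gene and both thin filament genes were lower, and of the I-band genes 1 was higher and 1 lower. At E11.5, 2 Z-disc, 1 I-band, 1 M-band and 3 thin filament genes passed, against 9.34% of all genes. There the Z-disc and M-band genes were lower, the I-band gene was higher, and of the thin filament genes 1 was higher and 2 lower.

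Fhl2 was at 11.19, 11.33, 11.64 and 11.40 in mutant and 10.50, 11.03, 11.02 and 11.05 in control hearts at E13.5. At E11.5 it was at 10.53, 10.36, 10.52 and 10.36 in mutant and 9.80, 9.91, 9.97 and 10.00 in control hearts. The groups were apart at both stages. The log2 FC was 0.49 at E13.5 (standard error 0.13, adjusted p = 0.521), 0.52 at E11.5 (adjusted p = 0.142) and 0.50 as the mean (standard error 0.09, adjusted p = 0.0187). The call was lost under 9 of 21 other settings, in 7 of them by the fold alone, and without the 3 hearts that stood apart by both the fold and the adjusted p (0.44, adjusted p = 0.0645).

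Among the thin filament genes, Lmod3, a leiomodin that nucleates actin filaments, had log2 FCs of -0.55 at E13.5 and -0.42 at E11.5 (mean -0.49, standard error 0.12, adjusted p = 0.126). Xirp2, which encodes an actin-binding repeat protein, was at 4.65, 5.29, 4.40 and 4.71 in mutant and 5.56, 5.60, 5.74 and 5.26 in control hearts at E13.5 (log2 FC -0.77, adjusted p = 0.488), with overlapping hearts and 0.11 at E11.5. Tmod4, a tropomodulin that caps the pointed end, showed 0.25 at E13.5 and 0.59 at E11.5 (adjusted p = 0.197). Xirp2 and Tmod4 were dim, at mean levels of 5.06 and 5.95 over all hearts, so their values carry the limit of dim probe sets. Cmya5, the myospryn gene, was at -0.14 at E13.5 and had the lowest M-band value at E11.5, -0.51 (adjusted p = 0.238). Of the Z-disc genes, Synpo2, which encodes an actin-bundling protein, showed -0.20 at E13.5 and -0.35 at E11.5 (adjusted p = 0.265), and Pdlim3, a PDZ and LIM protein that binds α-actinin, was at -0.25 at E13.5 and -0.27 at E11.5. None of these 6 genes was called at either stage or as the mean.

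The other genes with the lowest p-values of each list differed by less than 0.3 at both stages and none was called (log2 FCs at E13.5, then E11.5). Among the titin I-band partners, Fhl1, a LIM protein, was at -0.28 at E13.5 and -0.09 at E11.5, and Ankrd1, a stretch-responsive ankyrin repeat protein, at 0.12 and 0.19. Its relatives Ankrd2 (0.13 at E13.5 and -0.15 at E11.5) and Ankrd23 (-0.03 and 0.27) had opposite signs at the 2 stages. Among the M-band partners, the muscle RING finger genes Trim54 (-0.18 and -0.24) and Trim63 (0.17 and 0.21), whose products are ubiquitin ligases that bind titin, differed in sign from each other. Obsl1, an obscurin-like cross-linker, was at 0.01 at E13.5 and -0.15 at E11.5. In the Z-disc list the calsarcin genes Myoz1 (-0.16 and -0.29) and Myoz2 (-0.19 and 0.20) and the PDZ and LIM genes Pdlim5 (-0.19 and -0.04) and Pdlim7 (0.11 and 0.20) showed no common direction. The assembly genes Lmod2 (-0.21 and -0.14), Smyd1 (-0.0041 and -0.21) and Unc45b (-0.13 at both stages), a leiomodin, a methyltransferase and a myosin chaperone, were below 0 at both stages.

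**Figure D4:**
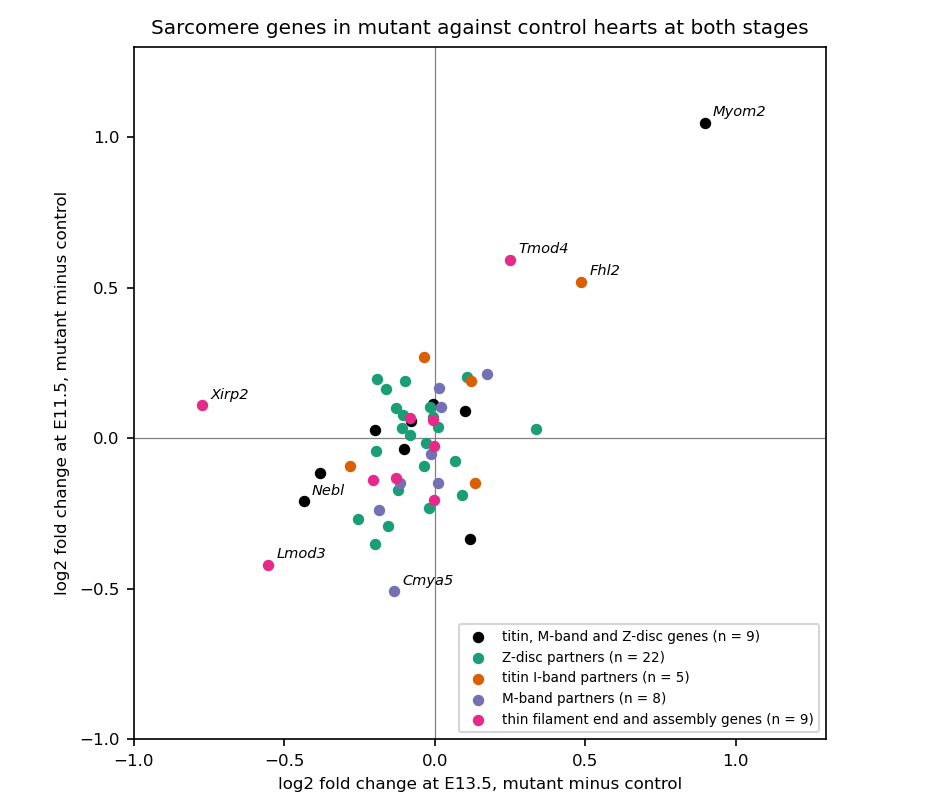
Log2 FC in mutant minus control hearts at E13.5 (x axis) against E11.5 (y axis) for the 9 genes and the 4 partner lists, 1 point per gene. Genes over 0.4 in size at either stage are named, with Myom2 at 0.90 and 1.05 and Fhl2 at 0.49 and 0.52.

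Between the stages, genes of each partner list were called. In mutant hearts 8 of 22 Z-disc, 3 of 5 I-band, 4 of 8 M-band and 3 of 9 thin filament genes were higher at E13.5, against 16.8% of all genes, and 1 Z-disc gene was lower (29.6% of all genes were called in either direction). In control hearts 9 Z-disc, 3 I-band, 4 M-band and 3 thin filament genes were higher, against 16.5% of all genes, and 1 Z-disc gene was lower (28.8% called in either direction). The 11 heart muscle genes had median log2 differences of 0.32 in mutant and 0.36 in control hearts, beside 0.35 in both for the Z-disc list. Calls of partner genes were not repeated on arrays centred on the heart muscle genes. Ckm, the muscle creatine kinase that docks at the M-band, led the M-band list, with log2 differences of 2.97 in mutant and 2.93 in control hearts.

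Hearts of 1 group varied together in part of the genes. With group means removed, 27 of the 36 pairs of the 9 genes correlated positively over the 16 hearts (median r 0.23), and 10 pairs had r over 0.5. The highest were Actn2 with Ldb3 (r = 0.74), Actn2 with Nebl (0.72) and Myom1 with Actn2 (0.71). Myom2, Myom3 and Tcap had no r over 0.5 with any member. For Myom2, r ran from -0.45 (with Myom3) to 0.22 (with Csrp3). These points share the arrays and their normalisation, and are a description of 16 hearts.

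**Figure D5:**
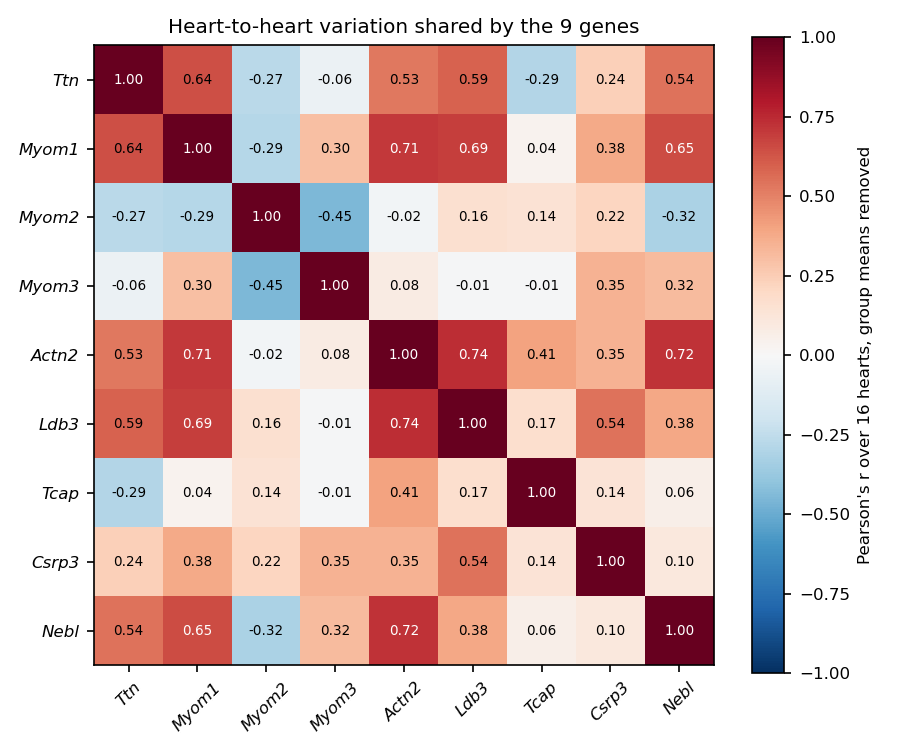
Pearson's r between each pair of the 9 genes over 16 hearts after removal of the group means, from -1 (blue) to 1 (red). Actn2 correlates with Ldb3 at 0.74 and with Nebl at 0.72, and Myom2 with Myom3 at -0.45.

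Of 11812 other genes above the median level, those most like Ttn over the 16 hearts by the same measure were Fgd5 (r = 0.93) and Fryl (0.89). Those most like Myom1 were Tsc22d4 and Trpv2 (both 0.88), and those most like Myom2 were Spock1 (0.84) and Mamld1 (0.83). Nebl was most like Med23 and Bod1l (both 0.89), Ldb3 most like Slc12a7 (0.89) and Myo18a (0.85), and Actn2 most like Clasp1 (0.85) and Satb1 (0.84). For Myom3 they were Ciart (0.87) and Rnf126 (0.84), for Tcap Spa17 and Irf8 (both 0.82), and for Csrp3 Otp and Cldn12 (both 0.80). Each r is among the highest of 11812 candidates and so is large by selection. Spearman's rho of the same pairs ran from 0.59 (Csrp3 with Otp) to 0.94 (Myom1 with Tsc22d4). No partner gene was among those named, but partner genes are a small part of the candidates.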

How the data were processed

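The authors extracted RNA from single embryonic hearts, amplified it with a whole-transcript kit and hybridised each heart to 1 Affymetrix Mouse Gene 1.0 ST array. The deposited values are log2 expression levels that the authors made by RMA with the affy package (background correction, quantile normalisation and summary per probe set), and they range from 2.74 to 14.56. Intensities before RMA were not used here, so the number of arrays limits the precision and no depth can be given. Of 34760 probe sets, 21640 name 1 gene, 1321 several and 11799 none, and a gene is its brightest single-gene probe set. RMA can compress differences of dim probe sets. The replicates are separate hearts.

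A model with 1 mean per group was fitted with limma 3.58.1 in R 4.3.3 over all 16 arrays and all probe sets (residual df 12), with Benjamini-Hochberg adjustment over all probe sets. Calls needed a log2 FC over 0.5 in size with an adjusted p under 0.05, the thresholds of the study, and the difference of effects needed the adjusted p alone. Single values were compared with two-sided exact permutation tests. The fit was tested on simulated data with known changes. Alternatives were other priors, array weights, normalisations, filters, a replicate block, a covariate, each stage alone and each heart left out. Leaving out the 3 hearts that stood apart was added after seeing the data. The named genes are all members, the genes of each partner list that were called or were among the 4 with the lowest p at a stage, and for each member the 2 most alike by correlation. The members and lists were chosen with earlier results of these data known.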

Additional observations from a re-analysis of the deposited data

Results flagged for a closer look

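Ttn in control E11.5 replicate 2 was at 11.59, against 10.79 to 10.83 in the other control hearts of that stage. Its gap to the nearest heart was 0.941 of the group's range, above the critical value of Dixon's test for 4 hearts. In all, 36 groups of 4 hearts were tested, and chance picks out about 5 percent of such groups. Without this heart the log2 FC of Ttn at E11.5 was 0.28.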

How the results depend on the processing

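No member was called at E13.5, or for the difference between stages, under any of the 30 and 28 alternatives run. At E11.5, 1 member (Myom2) was called with a trended and robust prior, after quantile normalisation, without dim probe sets and with single-gene probe sets only, and 0 to 1 with 1 heart left out (Myom2 without mutant or control replicate 2 of E11.5, adjusted p = 0.0401 and 0.0497). In the average over stages, 0 members were called without the 3 hearts that stood apart, and 1 with any single heart left out. Over all genes, same-numbered mutant and control hearts did not deviate together. Their r was -0.05 to 0.04 over 3 pairs at E13.5 and -0.03 to 0.01 over 4 pairs at E11.5. Whether same-numbered hearts share a litter or a run was not tested, and so few pairs cannot decide it. With a replicate block 0 members were called in the average (Myom2 at 0.97, adjusted p = 0.0662), and the partner gene Fhl2 lost its call by the adjusted p alone (0.51, adjusted p = 0.0662).

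Between stages in mutant hearts, 2 members were called after quantile normalisation, cyclic loess or centring on heart muscle genes (Myom2, and Nebl at -0.64, -0.64 and -0.70), 2 without the 3 hearts (Myom2, and Myom3 at 0.57) and 3 with no threshold on the fold. In control hearts 5 were called with no such threshold. Centring on heart muscle genes brought Myom3 (-0.50) and Nebl (-0.51) past the threshold in control hearts. These signs turned, all in members that were not called: with array weights, Ldb3 as the mean 0.0091 and the Ttn difference -0.12. With quantile normalisation, Csrp3 at E11.5 -0.0034, and between stages Myom1 -0.18 in mutant and -0.079 in control hearts and Ldb3 -0.033 in mutant hearts. With cyclic loess, Myom1 -0.19 in mutant and -0.079 in control hearts and Ldb3 -0.045 in mutant hearts. With centring on heart muscle genes, Myom1 at E13.5 0.047, Ldb3 as the mean 0.025, and between stages Myom1 -0.25 in mutant and -0.16 in control hearts, Actn2 -0.091 in mutant and -0.057 in control hearts, Ldb3 -0.11 in mutant and -0.0036 in control hearts, and Myom3 -0.013 in mutant hearts. With the replicate block, Myom1 at E13.5 0.082 and Ldb3 as the mean 0.0030. With a Y-linked covariate, Myom1 at E13.5 0.018, Csrp3 at E11.5 -0.0044, Ldb3 as the mean 0.012 and the Ttn difference -0.00687. Without the 3 hearts, Csrp3 at E11.5 -0.041 and the Ttn difference -0.16. With 1 heart left out, Myom1 at E13.5 ranged from -0.063 to 0.044, Ttn at E11.5 from -0.16 to 0.28, as the mean from -0.030 to 0.19, its difference from -0.18 to 0.26 and between stages in mutant hearts from -0.33 to 0.069, Csrp3 at E11.5 from -0.055 to 0.094, Ldb3 as the mean from -0.032 to 0.020, and Myom1 between stages in mutant hearts from -0.043 to 0.15. The cause was not tested. Over all genes, array weights gave 39 calls at E13.5 and 13 at E11.5, against 9 and 50 without them. The intervals of Ttn, the widest, limit what 4 hearts a group can show.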
